A study of Homo sapiens with 4 samples.

Results

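The 7 genes described here encode serpins, a family of protease inhibitors, and were chosen by name: SERPINB1, SERPINB2, SERPINB3, SERPINB4, SERPINB5, SERPINB13 and SERPINE2. All 7 were found, once each, among the 53826 entities of every library. Gene expression had been measured by mRNA sequencing in 4 libraries of PK-1, a human cell line of well-differentiated pancreatic ductal adenocarcinoma, to find what changes with overexpression of SPRR1A, a small proline-rich protein of squamous differentiation. The stable model held cells infected with a pMXs retroviral vector for FLAG-tagged SPRR1A (stable SPRR1A) or for the red fluorescent protein DsRed (stable DsRed). In the transient model, pCAG plasmids for FLAG-tagged SPRR1A (transient SPRR1A) or green fluorescent protein (transient GFP) were transfected, and RNA was isolated after 48 h. Each condition had 1 library, so differences between conditions stand without replicates and without p-values.

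A serpin offers an exposed loop to a protease, is cleaved there and traps the enzyme in a dead-end complex. The clade B serpins have no classical signal peptide and act mostly inside cells, and several of them are typical of squamous epithelium. SERPINB5 (maspin) has the fold but not the inhibitory activity of its relatives. SERPINB1 blocks the neutrophil serine proteases, and SERPINB2 (plasminogen activator inhibitor 2) blocks urokinase and tissue plasminogen activator. SERPINB3 and SERPINB4 are the squamous cell carcinoma antigens, inhibitors of cysteine cathepsins and of chymotrypsin-like proteases, respectively, and belong to the basal-like pancreatic cancer signature that the study examined. SERPINB13 (headpin) is a keratinocyte serpin that inhibits cathepsins K and L. SERPINE2 (protease nexin) belongs to another clade, is secreted, and inhibits thrombin, urokinase and other trypsin-like proteases.

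Of these genes, 5 lie in the serpin cluster of chromosome 18. In the GENCODE 44 annotation of GRCh38 these are the protein-coding genes SERPINB5 (63476958 to 63505085, plus strand), SERPINB13 (63586989 to 63604639, plus strand), SERPINB4 (63637259 to 63644256, minus strand), SERPINB3 (63655197 to 63661893, minus strand) and SERPINB2 (63871692 to 63903888, plus strand). SERPINB1 lies on the minus strand of chromosome 6 from 2832332 to 2841959, and SERPINE2 on the minus strand of chromosome 2 from 223975045 to 224039318. Their canonical transcripts have 7 to 9 exons and coding sequences of 1128 to 1248 nt. SERPINB3 and SERPINB4 are a near-identical pair, with 1117 of 1173 coding positions the same (95.2%), whereas the other pairs were 54.8% to 68.7% identical. Of the 1658 windows of 50 nt in the SERPINB3 transcript, 413 (24.9%) also occur in SERPINB4, so the alignment could divide reads between them. For SERPINB2, 500 of 1857 windows (26.9%) occur in a GENCODE gene with no symbol, ENSG00000289724, a protein-coding model from 63897174 to 63917490 that overlaps its 3′ part. SERPINB1, SERPINB5, SERPINB13 and SERPINE2 shared no such window with another gene.

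The sequences around the start sites of 4 of the genes are shown because SERPINB2 was the member that varied most, SERPINB5 was the most abundant of the 7, and SERPINB3 and SERPINB4 are the pair that could not be detected. Each covers 250 bases before and 50 bases after the RefSeq start on GRCh38 patch 14, at chr18:63887455-63887754 (SERPINB2, plus strand), chr18:63476708-63477007 (SERPINB5, plus strand), chr18:63661844-63662143 (SERPINB3, minus strand) and chr18:63644207-63644506 (SERPINB4, minus strand). Capitals mark matches, on either strand, to the AP-1 motif TGANTCA, to TATAAA, to CCAAT and to the GC box GGGCGG.
SERPINB2: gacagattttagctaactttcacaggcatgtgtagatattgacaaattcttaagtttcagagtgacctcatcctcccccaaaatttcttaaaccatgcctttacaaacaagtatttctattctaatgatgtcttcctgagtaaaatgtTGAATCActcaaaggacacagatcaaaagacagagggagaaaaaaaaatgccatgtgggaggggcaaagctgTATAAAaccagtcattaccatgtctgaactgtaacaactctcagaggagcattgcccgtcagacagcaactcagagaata
SERPINB5: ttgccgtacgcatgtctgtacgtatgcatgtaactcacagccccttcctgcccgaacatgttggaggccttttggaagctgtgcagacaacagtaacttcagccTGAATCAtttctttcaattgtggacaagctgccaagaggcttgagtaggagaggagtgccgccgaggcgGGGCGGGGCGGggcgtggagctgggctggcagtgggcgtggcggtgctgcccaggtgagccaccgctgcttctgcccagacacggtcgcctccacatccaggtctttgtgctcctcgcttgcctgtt
SERPINB3: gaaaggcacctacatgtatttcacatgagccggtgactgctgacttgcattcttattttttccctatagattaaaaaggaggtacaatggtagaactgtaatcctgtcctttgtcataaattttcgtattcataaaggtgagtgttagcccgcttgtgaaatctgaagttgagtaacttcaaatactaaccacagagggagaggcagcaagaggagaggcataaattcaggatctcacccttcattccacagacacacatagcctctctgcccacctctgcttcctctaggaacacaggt
SERPINB4: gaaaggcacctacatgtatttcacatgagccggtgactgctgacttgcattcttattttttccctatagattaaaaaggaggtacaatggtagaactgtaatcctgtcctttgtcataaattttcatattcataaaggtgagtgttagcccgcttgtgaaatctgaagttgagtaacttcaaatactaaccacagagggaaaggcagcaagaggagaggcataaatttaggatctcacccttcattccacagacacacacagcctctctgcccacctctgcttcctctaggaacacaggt

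The SERPINB2 sequence has a GC content of 39.0% with 1 CpG, an AP-1 match that begins 102 bases before the start and a TATAAA that begins 30 bases before it. The SERPINB5 sequence has a GC content of 59.7% with 16 CpGs, an AP-1 match at 146 bases before the start and 2 GC boxes that share a base. SERPINB3 and SERPINB4 differ at 4 of 300 positions and hold none of these motifs. SERPINB13, not printed, has 1 AP-1 match and 1 TATAAA, the latter after its start. SERPINB1, also not printed, has a GC content of 65.7% with 27 CpGs and 2 GC boxes. Over 35116 RefSeq promoters of the same length, 7.71% hold the AP-1 motif, 11.5% TATAAA, 34.6% CCAAT and 45.0% the GC box, and the median GC content was 58.7%. A match is a string of letters and no evidence of binding.

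Values are the log2 of TPM (transcripts per 1000000), a unit that accounts for transcript length and can be compared between genes. No deposited value is below 0, and a listed 0, called the floor here, means that the TPM was 1 or lower. SPRR1A itself, a check of the labels, was at a log2 TPM of 10.93 with SPRR1A and 0.75 with DsRed in stable cells, and of 16.60 with SPRR1A and 3.56 with GFP in transient cells. Depth in reads is unknown, and between 12964 and 13558 entities per library were above the floor. As markers of cell type, 7 of 8 squamous genes were above the floor in all 4 libraries, with KRT5, a basal keratin, at 9.59 to 10.30 and TP63, a transcription factor of basal epithelium, at 4.04 to 5.05, while KRT14, the keratin that pairs with KRT5, was at only 1.03 to 2.04 and KRT1 was at 0. Of 8 ductal genes, 7 were above the floor in all libraries, with KRT7, KRT8 and KRT18 at 12.20 to 12.94. The exception was MUC1, at 0 to 0.90. All 4 leukocyte genes and 5 of 6 fibroblast genes were at 0 in every library, with COL1A1 as the exception, and 3 of 4 acinar genes were at 0, with PRSS1 as the exception.

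PK-1 cells expressed 4 of the 7 serpin genes in every library, SERPINB5 and SERPINB1 at a TPM of 49.3 or more and SERPINE2 and SERPINB2 at a TPM of 7.08 or less. SERPINB5 was the highest, with a log2 TPM of 6.42 (SPRR1A) and 6.16 (DsRed) in the stable model and of 6.58 (SPRR1A) and 6.74 (GFP) in the transient model. SERPINB1 came next, with 5.93, 5.62, 5.76 and 6.05 in the same order. The ranges of these genes over the 4 libraries did not overlap, and both were lowest in stable DsRed and highest in transient GFP cells. SERPINE2 was at 2.53, 2.41, 2.77 and 2.82, or a TPM of 5.30 to 7.08, again with the lowest value in stable DsRed and the highest in transient GFP cells. Many entities share this order. Of those above the floor, 64.0% were higher in stable SPRR1A and 67.2% higher in transient GFP than in stable DsRed cells. In transient SPRR1A cells 90.0% were lower than in transient GFP cells. SERPINB2 was at 1.30, 0.07, 2.33 and 2.56. Its level in stable DsRed cells, a TPM of 1.05, sat just above the floor, and both transient libraries were above both stable ones. The ranges of SERPINE2 and SERPINB2 overlapped, although SERPINE2 was higher in each library.

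SERPINB3, SERPINB4 and SERPINB13 were listed at 0 in all 4 libraries. A TPM above 1 was thus not seen for any of these squamous serpins. Of the 8 squamous markers in the same libraries, KRT13, KRT5, KRT10, IVL, TP63 and DSG3 were at a log2 TPM of at least 3.49, whereas KRT14 was at 1.03 to 2.04 and KRT1 at 0. For SERPINB3 and SERPINB4, reads that fit both genes could have been left out or divided, and how the alignment treated them is not stated, so a low shared level cannot be told apart from none. Together the 7 genes made up a TPM of 155 with SPRR1A and 127 with DsRed in stable cells, and of 162 with SPRR1A and 186 with GFP in transient cells. SERPINB5 and SERPINB1 accounted for at least 92.7% of this sum in each library.

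**Figure D1:**
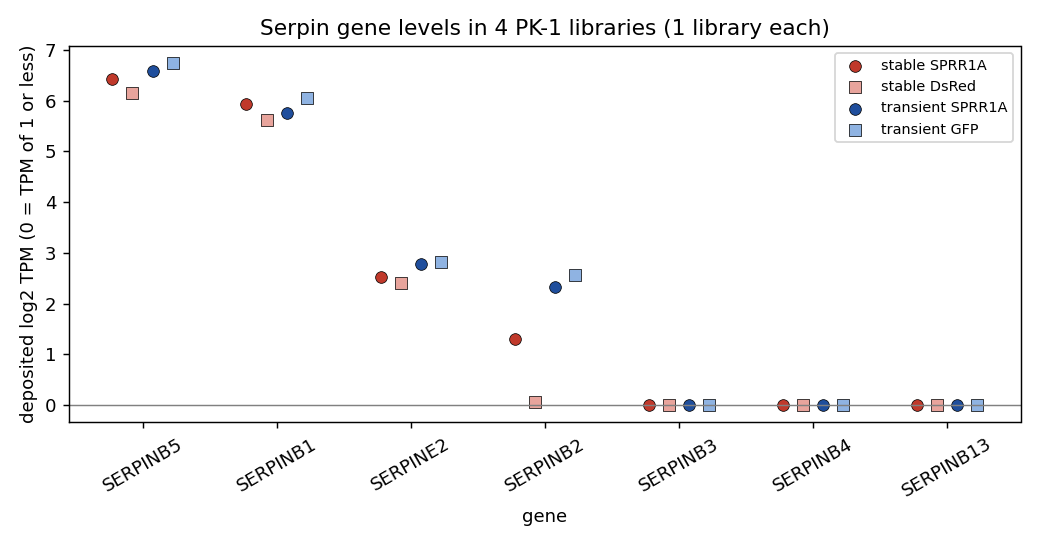
Deposited log2 TPM (vertical axis) of the 7 serpin genes (horizontal axis, by highest level), with 1 point per library; red stands for the stable and blue for the transient model, circles for SPRR1A and squares for the controls. SERPINB5 and SERPINB1 lie between 5.62 and 6.74, SERPINB2 spreads from 0.07 to 2.56, and SERPINB3, SERPINB4 and SERPINB13 are at 0 in every library.

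The first comparison asked whether stable SPRR1A expression was accompanied by a change in these serpins. All 4 expressed genes were higher in stable SPRR1A than in stable DsRed cells, as were 64.0% of all entities above the floor. Of the 4, 1 gene, SERPINB2, was past the 2-fold threshold that the study used. SERPINB2 was 2.34-fold higher (log2 difference 1.23), from a TPM of 1.05 to 2.45. Among the 13310 entities that either of these libraries showed above the floor, 0.526% were past the threshold upward and 0.421% downward, and 0.308% had a difference as high as that of SERPINB2 or higher. The log2 difference of SERPINB2 fell to 0.75, below the threshold, on the log2(TPM + 1) scale, and the gene was the only member past it, so the count became 0. SERPINB1 differed by 0.30 and SERPINB5 by 0.27, which 12.9% and 16.3% of entities equalled or exceeded. SERPINE2 differed by 0.12, close to the median of all entities, 0.07. The median of the 4 expressed members was 0.28. With a 1.5-fold limit SERPINB2 remained the only member called, where 2.51% of entities were called upward and 1.46% downward.

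In the transient model, where SPRR1A reached a higher level, no member was past the 2-fold threshold. All 4 expressed genes were slightly lower in transient SPRR1A than in transient GFP cells, by log2 differences of -0.30 for SERPINB1, -0.23 for SERPINB2, -0.16 for SERPINB5 and -0.05 for SERPINE2. The median of these, -0.19, was the same to 2 decimals as that of all 13717 entities above the floor, -0.19. Of those entities, 0.190% were past the threshold upward and 0.700% downward, and with a 1.5-fold limit, which called no member, 0.729% and 3.20%. When differences were centred on the median of well expressed entities (-0.18; TPM of 5 or more in each of the 2 libraries), SERPINB1 was at -0.12, SERPINB2 at -0.04, SERPINB5 at 0.02 and SERPINE2 at 0.13, so that the direction of the last 2 turned. In the stable model the same centring (0.06) left all 4 above 0, at 0.24, 1.17, 0.21 and 0.06.

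**Figure D2:**
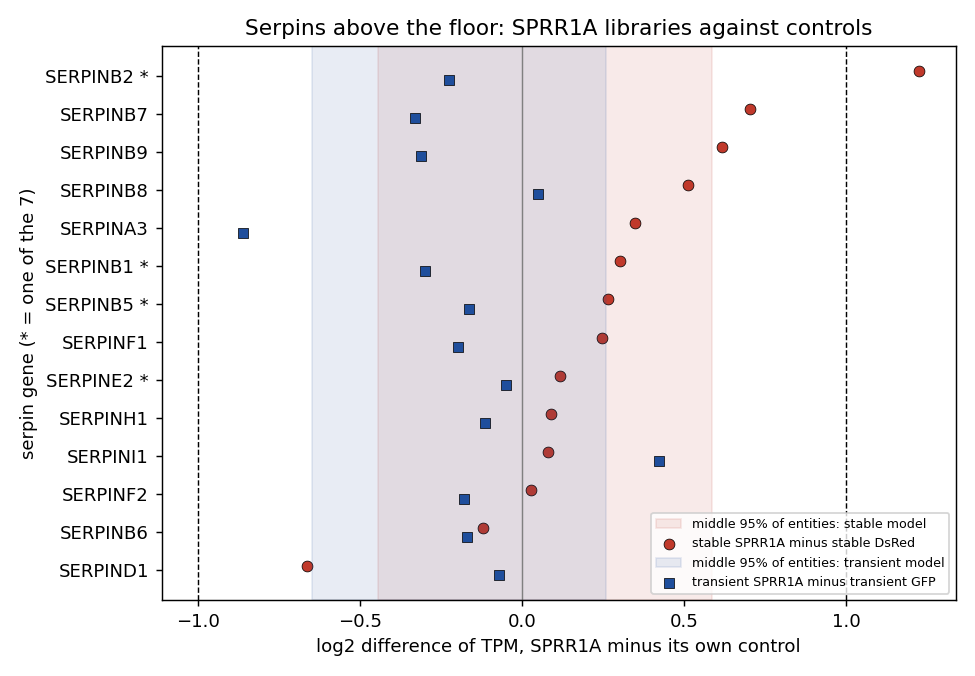
Log2 difference of TPM between each SPRR1A library and its own control (horizontal axis) for the 14 serpin genes that any library showed above the floor (vertical axis, the members with an asterisk); red circles are the stable and blue squares the transient model, bands span the middle 95% of entities in each model, and dashed lines mark the 2-fold threshold. SERPINB2 is the only serpin past a dashed line, at 1.23 in the stable model, and SERPINA3 is the lowest in the transient model, at -0.86.

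The wider family was examined by a list of 28 other human serpins, of which 10 were above the floor in some library and 18 were at 0 in all 4. None was past the 2-fold threshold in either model. Over all entities above the floor, 0.526% were past it upward and 0.421% downward in the stable model. For the transient model these shares were 0.190% and 0.700%. In the stable model 8 of the 10 were higher and 2 lower, with a median log2 difference of 0.17, and in the transient model 2 were higher and 8 lower, with a median of -0.17. Of all entities above the floor, 64.0% were higher in the stable model and 90.0% lower in the transient model, so the directions within the list were near the background. The most abundant of the list was SERPINH1, the collagen chaperone of the endoplasmic reticulum, at a log2 TPM of 8.10 to 8.48. SERPINB6, a cytosolic inhibitor of cathepsin G, was at 5.27 to 5.66, and SERPINF1 (pigment epithelium-derived factor), which has no inhibitory activity, was at 4.56 to 5.37. SERPINF2, the inhibitor of plasmin, was at 4.24 to 4.42. SERPINB9, the inhibitor of granzyme B, was at 2.44 (SPRR1A) and 1.82 (DsRed) in the stable model and at 2.54 (SPRR1A) and 2.85 (GFP) in the transient model. In the same order, SERPINB8 was at 2.47, 1.96, 2.90 and 2.85, and SERPINA3 (antichymotrypsin) at 2.53, 2.18, 1.05 and 1.91.

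Of the 10 serpins in the chromosome 18 cluster, 4 were expressed and 6 were at 0 in every library. SERPINB5, SERPINB7, SERPINB2 and SERPINB8 were all higher in stable SPRR1A than in stable DsRed cells, by log2 differences of 0.27, 0.70, 1.23 and 0.51 (median 0.61). In that comparison 64.0% of all entities above the floor were higher. In the transient model they differed by -0.16, -0.33, -0.23 and 0.05. The protein-coding genes within 2 Mb of the cluster, a list made after these values were seen, numbered 11, of which 8 were above the floor. In the stable model 7 of the 8 were higher and TNFRSF11A was at -0.01. Their median was 0.38, against 0.07 for all 11770 expressed protein-coding genes. None of the 8 was past the 2-fold threshold, where 0.526% of entities were past it upward and 0.421% downward. For the 158 expressed protein-coding genes of chromosome 18 outside the cluster the median was 0.14. VPS4B, the nearest of these flanking genes and part of the endosomal sorting machinery, differed by 0.51, and PHLPP1, a phosphatase of AKT, by 0.53. In the transient model the 8 flanking genes were all lower, with a median of -0.24, against -0.19 for all expressed protein-coding genes. Of those 11963 protein-coding genes, 11067 were lower, as were 152 of the 158 on chromosome 18 outside the cluster. Between the controls, transient GFP minus stable DsRed, the medians were 0.89 for the cluster and 0.55 for the flanking genes, against 0.17 for protein-coding genes. This comparison shares the stable DsRed library with that of the stable model. Between the SPRR1A libraries, transient minus stable, the medians were 0.29 and -0.12, against -0.09. Whether the cluster and its neighbours differ from other regions was not tested, since there is 1 library per condition.

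**Figure D3:**
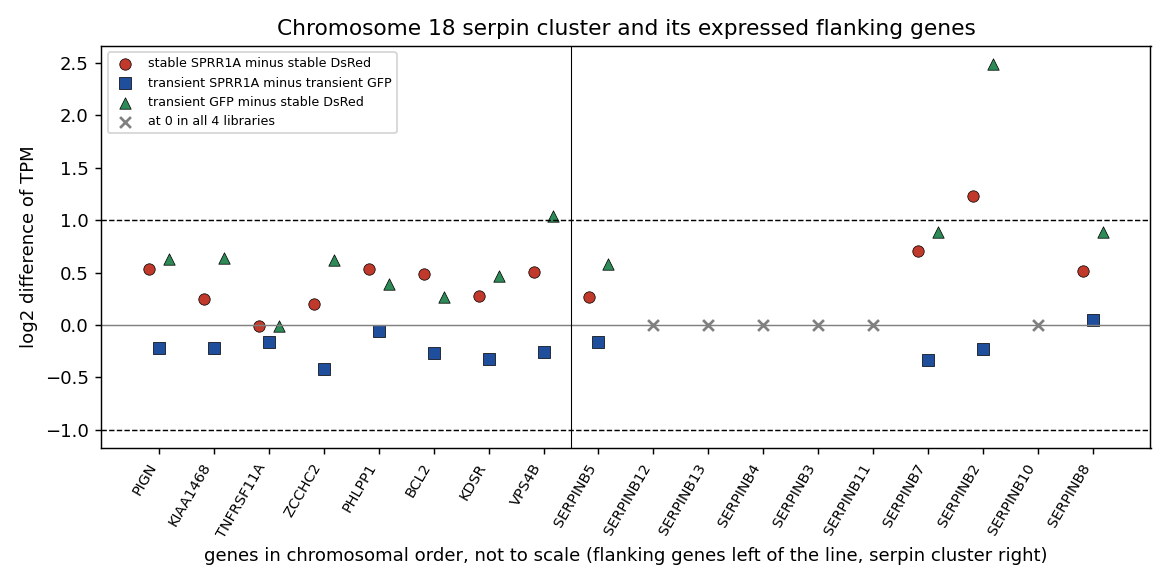
Log2 differences of TPM (vertical axis) for the 8 expressed flanking genes and the 10 serpins of the chromosome 18 cluster, in chromosomal order and not to scale; red circles are stable SPRR1A minus stable DsRed, blue squares transient SPRR1A minus transient GFP, green triangles transient GFP minus stable DsRed, and grey crosses genes at 0 in all 4 libraries. Of the 12 genes with values, 11 lie above 0 in the stable model, as do 64.0% of all entities above the floor. SERPINB2 reaches 1.23 in the stable model and 2.49 between the controls.

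Levels were then compared between the models, which differ in vector, transfection and culture history. The controls also differ in fluorescent protein. Their level of SPRR1A differs too, at a log2 TPM of 3.56 in transient GFP and 0.75 in stable DsRed cells. The SPRR1A libraries also differ in the level of SPRR1A, at a log2 TPM of 16.60 in transient and 10.93 in stable cells. These differences cannot be told apart. Transient GFP cells had 5.60-fold more SERPINB2 than stable DsRed cells (log2 difference 2.49), and transient SPRR1A cells had 2.05-fold more than stable SPRR1A cells (1.03). The value for the controls shares the stable DsRed library, the lowest for SERPINB2, with the comparison of the stable model. Between the controls 6.86% of the 13761 entities above the floor were past the threshold upward and 0.661% downward, and 0.196% were as high as SERPINB2. Between the SPRR1A libraries, 2.61% of 13549 entities were past it upward and 0.974% downward, and 2.41% were as high as SERPINB2. SERPINB2 was the only member past the threshold in either comparison. On the log2(TPM + 1) scale its difference was 1.75 between the controls and 0.80, below the threshold, between the SPRR1A libraries.

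The other 3 expressed members differed less. Between the controls SERPINB5 was higher by 0.58, SERPINB1 by 0.43 and SERPINE2 by 0.42, against a median of 0.18 over all entities. Between the SPRR1A libraries the differences were 0.16, -0.17 and 0.25, against a median of -0.08. With a 1.5-fold limit SERPINB2 was again the only member called, where 19.9% of entities were called upward and 3.02% downward between the controls, and 7.61% and 5.54% for the SPRR1A libraries. SERPINB5 lay just under that limit between the controls. Among the other serpins, SERPINB9 was past the 2-fold threshold between the controls (1.02) and at 0.09 for the SPRR1A libraries. The former fell to 0.90 on centring and to 0.85 on the log2(TPM + 1) scale, both below the threshold. SERPINA3 was past it downward between the SPRR1A libraries (-1.48) and at -0.28 between the controls.

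SERPINB2 was the only member whose highest and lowest log2 TPM differed by more than 1. Of 10575 entities whose TPM reached 5 in some library, small RNAs left out, the 3 with the most similar profile over the 4 libraries were TPTEP1, a transcribed pseudogene, IL32, a cytokine, and MYOSLID, a long noncoding RNA. Their root mean square difference from the SERPINB2 profile, each profile centred on its own mean, was 0.08, 0.08 and 0.10 on the log2 scale. IL32 was at 1.57 (SPRR1A) and 0.36 (DsRed) in the stable model and at 2.58 (SPRR1A) and 2.64 (GFP) in the transient model. TPTEP1 was at 1.95, 0.50, 2.84 and 3.08, and MYOSLID was at 1.44, 0, 2.28 and 2.71. All 3 had, like SERPINB2, a low value in stable DsRed cells, which follows from their choice by likeness to its profile. With 4 libraries, a close match among many entities is a description only.

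A list of 18 proteases and receptors held targets and partners of these serpins as well as epithelial surface proteases. It was examined in the same way, and 13 of its genes were above the floor. None passed the 2-fold threshold in either model, with a median log2 difference of 0.04 in stable cells and -0.13 in transient cells. Medians over all entities above the floor were 0.07 and -0.19, respectively. Of those entities, 0.526% passed the threshold upward and 0.421% downward for stable cells, and 0.190% and 0.700% for transient cells. With shares this low, finding none among 13 genes does not set the list apart from other entities. The neutrophil proteases ELANE, CTSG and PRTN3, the mast cell chymase CMA1 and prothrombin (F2) were at 0 in all 4 libraries, so the classical targets of SERPINB1 and SERPINB4 and the classical target of SERPINE2 were not detected in these cells. CASP1, an inflammatory caspase, was at 4.38 to 4.70. The plasminogen activators were abundant, with urokinase (PLAU) at 8.22 to 8.84 and tissue plasminogen activator (PLAT) at 6.67 to 7.06. The urokinase receptor PLAUR was at 5.50 to 6.46. Among the cathepsins, CTSL was at 7.25 to 8.15 and CTSV at 5.03 to 5.16, while CTSS was at 1.90 to 3.20. The membrane proteases ST14 (matriptase), at 7.82 to 8.18, and PRSS8 (prostasin), at 5.73 to 6.21, were well expressed, and the endocytic receptor LRP1, which clears serpin complexes, was at 3.94 to 4.40.

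Between the models, CTSS was higher in transient cells and past the threshold in both comparisons, by 1.30 for the controls and 1.16 for the SPRR1A libraries. HTRA1, a secreted serine protease, was lower in transient cells by log2 differences of -1.06 and -1.32. Of all entities above the floor, 6.86% were past the threshold upward and 0.661% downward between the controls. Between the SPRR1A libraries these shares were 2.61% and 0.974%. In the same 2 comparisons, 3.25% and 1.78% of entities were as high as CTSS, and 0.560% and 0.384% as low as HTRA1. On the log2(TPM + 1) scale CTSS fell below the threshold between the SPRR1A libraries (0.99) and HTRA1 between the controls (-0.96). PLAUR (0.96 and 0.84), CTSL (0.86 and 0.76) and PLAU (0.62 and 0.49) were higher in transient cells without reaching it. Over the 13 expressed genes of the list the median was 0.46 for the controls and 0.10 for the SPRR1A libraries, against medians of 0.18 and -0.08 over all entities.

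**Figure D4:**
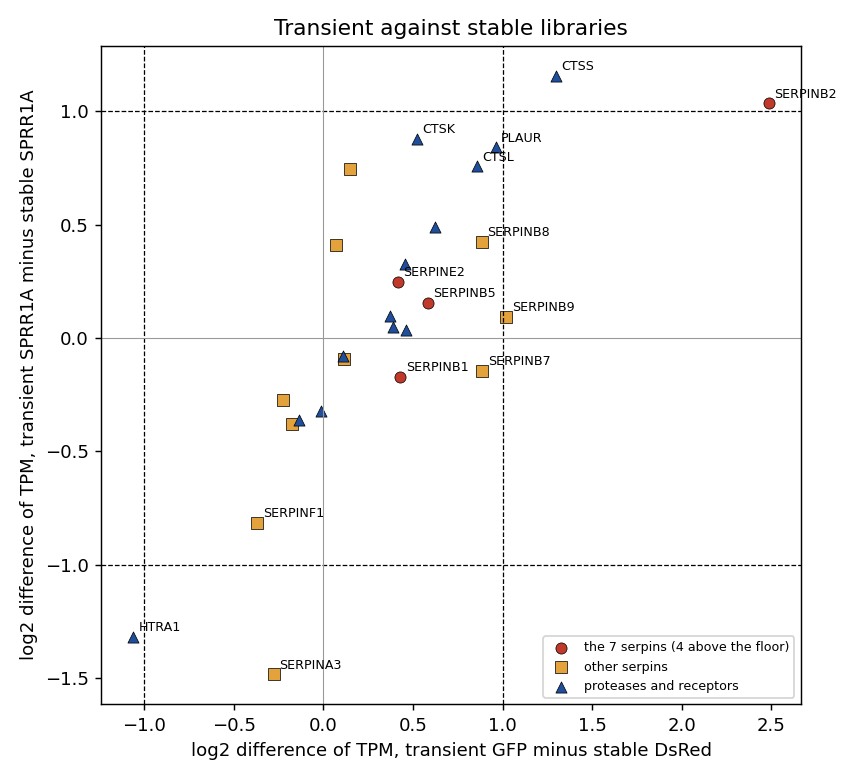
Log2 difference of TPM between transient and stable libraries, for the controls (horizontal axis) and for the SPRR1A libraries (vertical axis); red circles are the 4 expressed members, orange squares the other serpins and blue triangles proteases and receptors, and dashed lines mark the 2-fold threshold. SERPINB2, at 2.49 and 1.03, and CTSS, at 1.30 and 1.16, are past the upper threshold on both axes, and HTRA1 is past the lower one on both.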

How the data were processed

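Stranded mRNA libraries were prepared and sequenced in paired-end mode by a service provider. The authors used Strand NGS (default settings) for alignment against the hg38 human transcriptome and for TPM normalization, and deposited 1 log2 TPM value per gene and library. The annotation release, the software version, the read length and the treatment of reads matching several genes are not given in the sources used here. Depth in reads is unknown, so no counting interval is given.

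From these values, log2 differences were taken for SPRR1A against its control in each model and between the models, with the 2-fold threshold of the study and no test, since each group has 1 library. Background shares are over the entities that either library of a comparison showed above the floor. The 7 members and the lists were chosen with earlier results of these data known. Genes named besides the members had a TPM of at least 5 in any library or passed the threshold, plus the 3 nearest profiles per member with a range above 1. SERPINB7, CTSK, the flanking genes, the list genes named as being at 0 and the markers other than KRT5 and TP63 fall outside that rule and were named after their values were seen. Of the serpin list, 1 gene is not reported here and was left out of its counts. All 7 genes matched the RefSeq and GENCODE 44 tables by symbol. Windows of 50 nt were compared across all GENCODE transcripts, and coding sequences were aligned globally. The calculations were tested on simulated data. Python 3.11.15, numpy 2.4.6, pandas 2.3.3, Biopython 1.88 and matplotlib 3.10.9 were used. Alternatives were log2(TPM + 1), log2(TPM + 0.1), centring, leaving SPRR1A out of the TPM total, a filter that required a TPM of 5 or more in each of the 2 libraries, and a 1.5-fold limit.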

Additional observations from a re-analysis of the deposited data

Results flagged for a closer look

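Of 29 genes examined (the expressed members, other serpins, proteases and receptors, 3 flanking genes and 3 nearest profiles), 14 moved in opposite directions in the 2 models both before and after centring. Of these, 10 were up in the stable and down in the transient model on both scales, and for SERPINF2, PLAU, PLAUR and CTSV the direction turned on centring in both models. Among the 13083 entities above the floor in both models, 40.6% moved in opposite directions and 30.5% were up, then down, on both scales, against 48.3% and 34.5% of the genes examined, so the pattern is common and nothing particular is read from it. With 1 library per condition, this contrast was not tested. Among the members, the stable log2 difference of SERPINB2 was 1.45 above the transient one and that of SERPINB1 was 0.60 above it. Among other serpins the gap was 1.21 for SERPINA3, 1.03 for SERPINB7, 0.93 for SERPINB9, 0.45 for SERPINF1 and 0.21 for SERPINF2. Among proteases and receptors it was 0.43 for LRP1, 0.19 for CTSV, 0.13 for PLAU and 0.12 for PLAUR. It was 0.76 for the flanking gene VPS4B. For MYOSLID (1.87) and TPTEP1 (1.69), the gap follows from their choice by likeness to SERPINB2.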

How the results depend on the processing

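No paired analysis was possible because no condition has more than 1 library. SERPINB2 kept its direction under every alternative that gave a value. In the transient model the direction of SERPINB5 and SERPINE2 turned on centring, and that of SERPINE2 also when SPRR1A was left out of the TPM total (0.10).

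Counts of genes past the threshold, in either direction, rested on few low-level genes. Of the members, 1 was past it in the stable model, as between the controls and the SPRR1A libraries of the models. On the log2(TPM + 1) scale this became 0 in the stable model and 0 between the SPRR1A libraries, and with a filter that asks for a TPM of 5 or more in each of the 2 libraries it became 0 in all 3, because that filter removes SERPINB2 by construction. For the other serpins, the count of 1 between the controls (SERPINB9) became 0 under log2(TPM + 1), centring and the TPM filter, and the count of 1 between the SPRR1A libraries (SERPINA3) became 0 under the TPM filter. For the proteases and receptors, the counts of 2 for the controls and 2 for the SPRR1A libraries became 1 in each under log2(TPM + 1) and under the TPM filter. For the SPRR1A libraries the count became 3 when SPRR1A was left out of the TPM total, with CTSK added (1.03). With a 1.5-fold limit, the other serpins past it numbered 3 for the stable (2 upward, 1 downward) and 1 for the transient model (downward). They numbered 3 for the controls, all upward, and 3 for the SPRR1A libraries, 1 upward and 2 downward. The proteases and receptors past it numbered 5 for the controls and 5 for the SPRR1A libraries, 4 upward and 1 downward in each. Of entities above the floor, 2.51% passed this limit upward and 1.46% downward for stable SPRR1A, and 0.729% and 3.20% for transient SPRR1A. The shares were 19.9% and 3.02% for the controls, and 7.61% and 5.54% for the SPRR1A libraries. Changes from below a TPM of 1 are understated by the floor.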
